A study of Homo sapiens with 9 samples.

Results

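Described here are the CBWD copies, which encode the zinc chaperone now called ZNG1, and the methionine aminopeptidases, which include its client METAP1. They are CBWD1, CBWD2, CBWD3, CBWD5, CBWD6, METAP1, METAP2 and METAP1D, 8 of the 57766 genes in the expression table, and were taken by their gene symbols. All 8 had 1 row each. The RNA came from the established human line HEK293, of embryonic kidney, in its Freestyle form, which grows in suspension. After 18 h or longer in Freestyle medium at a density of 1000000 cells/mL the cells were washed, resuspended at 4000000 cells/mL and held for 36 h in 12-well plates in 1 of 3 media. The depleted group was in Freestyle medium from which zinc had been removed, the repleted group in such depleted medium to which zinc had been returned, and the full group in untreated Freestyle medium. The labels record a wash with 500 µM EDTA followed by 3 washes with PBS, in wording that does not settle what was washed, and they give no zinc concentration. Each group had 3 libraries of polyadenylated RNA, described as biological triplicates, all of 1 cell line.

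CBWD proteins are GTPases of the G3E family, some of whose members use GTP hydrolysis to pass metal ions to the enzymes that need them. ZNG1 binds methionine aminopeptidase 1 through that enzyme's zinc finger and delivers zinc to it. Methionine aminopeptidases cut the first methionine from new proteins as they leave the ribosome, which exposes the residue that N-terminal acetylation, myristoylation and the N-degron pathways then act on. METAP1 and METAP2 work in the cytosol, and METAP1D in mitochondria.

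The human CBWD genes are recent copies of each other, and the reads that can tell them apart are few. Among the coding sequences of 5 copies annotated in GENCODE 29 (CBWD1, CBWD2, CBWD3, CBWD5 and the gene the deposited table calls CBWD7), each 1188 bases long, 26 positions differed. CBWD1 and CBWD2 differed at 12 positions, CBWD1 and CBWD3 at 14, and CBWD3 and CBWD5 at 2, an identity of 99.83%. The first 90 coding bases of the copies are given to show how little separates them, with capitals at the 3 positions that differ.
CBWD1: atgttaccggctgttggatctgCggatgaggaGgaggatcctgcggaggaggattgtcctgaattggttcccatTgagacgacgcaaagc
CBWD2: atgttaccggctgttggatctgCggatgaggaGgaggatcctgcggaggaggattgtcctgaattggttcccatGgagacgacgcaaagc
CBWD3: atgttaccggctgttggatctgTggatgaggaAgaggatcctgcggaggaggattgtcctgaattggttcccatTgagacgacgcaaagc
CBWD5: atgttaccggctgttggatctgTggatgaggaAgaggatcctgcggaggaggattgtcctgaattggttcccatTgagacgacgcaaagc

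Counted from 1 at the A of the start codon, with CBWD1 as the reference, CBWD2 carried T75G, and CBWD3 and CBWD5 carried C23T and G33A. CBWD3 and CBWD5 were identical over this stretch. The difference between a gene's length and its effective length in the table, 49 bases at the median, implies reads of 50 bases. Of the 50-base windows of the principal transcripts, 23.4% in CBWD2, 17.7% and 18.3% in the transcripts of CBWD1, 17.6% in CBWD3 and 11.5% in CBWD5 occurred in no other GENCODE 29 gene. The other windows of these 4 genes were shared with another CBWD copy. By contrast, 100% of the windows of METAP1 and METAP2 and 96% of those of METAP1D were found in no other gene. Only GENCODE 29 was searched, which keeps 1 of 20 deposited transcripts of CBWD6 and 8 of 16 of CBWD7. Against the deposited transcripts, the CBWD shares of windows in no other gene could be lower. A read from a shared window can be assigned to a single CBWD copy only by estimation, so each copy's value below is uncertain and their sum is given beside them.

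The names of 2 copies depend on the annotation. The gene identifier that the deposited table calls CBWD6 (ENSG00000204790) is an unprocessed pseudogene in GENCODE 29, which keeps 1 of its 20 deposited transcripts. The identifier that the table calls CBWD7 (ENSG00000215126) carries the name CBWD6 there. The table's names are used here. CBWD7 is not among the 8 genes and was barely present, at 1.15 ± 0.519 RPKM in depleted, 1.01 ± 0.121 RPKM in repleted and 1.02 ± 0.645 RPKM in full libraries (SD, n = 3 each).

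The start regions of the copies were also alike. RefSeq (GRCh38.p14) windows from 250 bases before to 50 after a gene's start were matched for 6 of the 8 genes, all but METAP2 and CBWD6, and both strands were searched for 3 motifs. The cyclic AMP response element TGACGTCA, which CREB and ATF factors bind, lay in the windows of CBWD1, CBWD3 and CBWD5, against 1.85% of all 35116 promoter windows. The 80 bases that end 12 bases after it are given because they show that the copies share the element and its surroundings, with the element in capitals.
CBWD1: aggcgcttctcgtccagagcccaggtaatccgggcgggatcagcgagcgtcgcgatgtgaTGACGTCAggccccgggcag
CBWD3: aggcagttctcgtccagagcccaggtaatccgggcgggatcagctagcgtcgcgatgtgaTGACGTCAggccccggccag
CBWD5: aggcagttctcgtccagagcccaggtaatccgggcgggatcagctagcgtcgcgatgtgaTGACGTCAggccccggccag

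These stretches lie in the windows chr9:179007-179306 (minus strand, CBWD1), chr9:68241733-68242032 (plus strand, CBWD3) and chr9:65675678-65675977 (plus strand, CBWD5). The element began 23 bases before the upstream of the 2 annotated starts of CBWD1 and 61 bases before the starts of CBWD3 and CBWD5. The core of the metal response element, TGCACNC or TGCGCNC, which the zinc sensor MTF1 binds, was present in all 6 matched genes and in 29.6% of all windows. It read TGCGCCC in each matched CBWD copy. The windows of the copies are not independent of each other, for this core or for TGACGTCA. In CBWD1, CBWD3 and CBWD5 the metal response core lay 172 bases upstream of TGACGTCA. The window of CBWD2 (chr2:113437441-113437740, plus strand) ended 153 bases after its metal response core and so did not reach the matching position. TGACGTCA was not found in the windows of METAP1 and METAP1D, and TGATGNAA, a form of the C/EBP-ATF response element, was found in none of the 6 genes and in 3.62% of all windows. Such matches describe letters in a window and not factor binding.

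Expression was given as log2 of RPKM plus 1, where RPKM is the read number scaled per gene length and per library total. Levels below are RPKM, and differences are log2 differences of RPKM plus 1 with their standard error (SE). A gene was called where limma's adjusted p over all 15774 tested genes was below 0.05. Zinc-responsive genes followed the labels: MT2A, a metallothionein that binds zinc, averaged 6.46 ± 0.687 RPKM in depleted, 93.5 ± 3.34 RPKM in repleted and 190.7 ± 8.9 RPKM in full libraries, and MT1X, MT1F and the zinc exporter SLC30A1 had the same order of means. All 4 fell in depleted against both other media, and 2 of the 4 fell in repleted against full medium. Pearson's r across genes was 0.9356 to 0.941 between depleted and other libraries, 0.9819 to 0.9858 between repleted and full libraries and 0.983 to 0.9874 within groups. An estimated 16600000 to 23500000 reads stood behind each library. Markers of other cell lineages (7 in the table) summed to 1.63 to 3.21 RPKM in depleted, 1.34 to 2.56 RPKM in repleted and 2.16 to 2.9 RPKM in full libraries, with INS at 0 in all 9. Of the 4 HEK293 markers, NEFL was at 6.53, 31.9 and 31.8 RPKM and PAX2 at 0.6, 3.02 and 3.29 RPKM on average in depleted, repleted and full libraries, both called lower in depleted, while VIM was called higher there. The whole HEK293 list summed to 662.5 to 684.6 RPKM in depleted, 617.8 to 628.8 RPKM in repleted and 612 to 620.8 RPKM in full libraries, mostly VIM. Their part in the results below was not tested.

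Called chaperone copies were higher and called enzyme genes lower in depleted medium. Against full medium 3 of the 5 CBWD copies rose and 0 fell, while 2 of the 3 methionine aminopeptidases fell and 0 rose. Over all tested genes 60.9% were called in that comparison, 29.8% higher and 31.2% lower, so a call by itself was common. The CBWD copies share most of their windows, so the 3 CBWD calls are not independent of each other. Limma's p does not include the uncertainty of assigning shared reads. The depleted libraries of the 5 called genes did not overlap the full ones, as for 33.4% of all genes on the higher and 34.3% on the lower side. The same 5 genes were called in the same directions against repleted medium, where 60.7% of all genes were called, 29.5% higher and 31.2% lower, and where the groups lay apart for 31.7% on the higher and 33.4% on the lower side. The depleted libraries enter both comparisons, so the second is not independent of the first. In repleted against full medium limma called 0 of the 8 genes, against 0.0317% of all genes, and 0 of the 8 had an unadjusted p below 0.05. The repleted and full libraries overlapped for all 8, while they lay apart for 12.4% of all genes. All 8 genes were at 3.27 RPKM or more in each library, so none entered the test through 1 group alone. In bulk RNA, fewer cells that express a gene and less of its RNA per cell cannot be told apart.

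**Figure D1:**
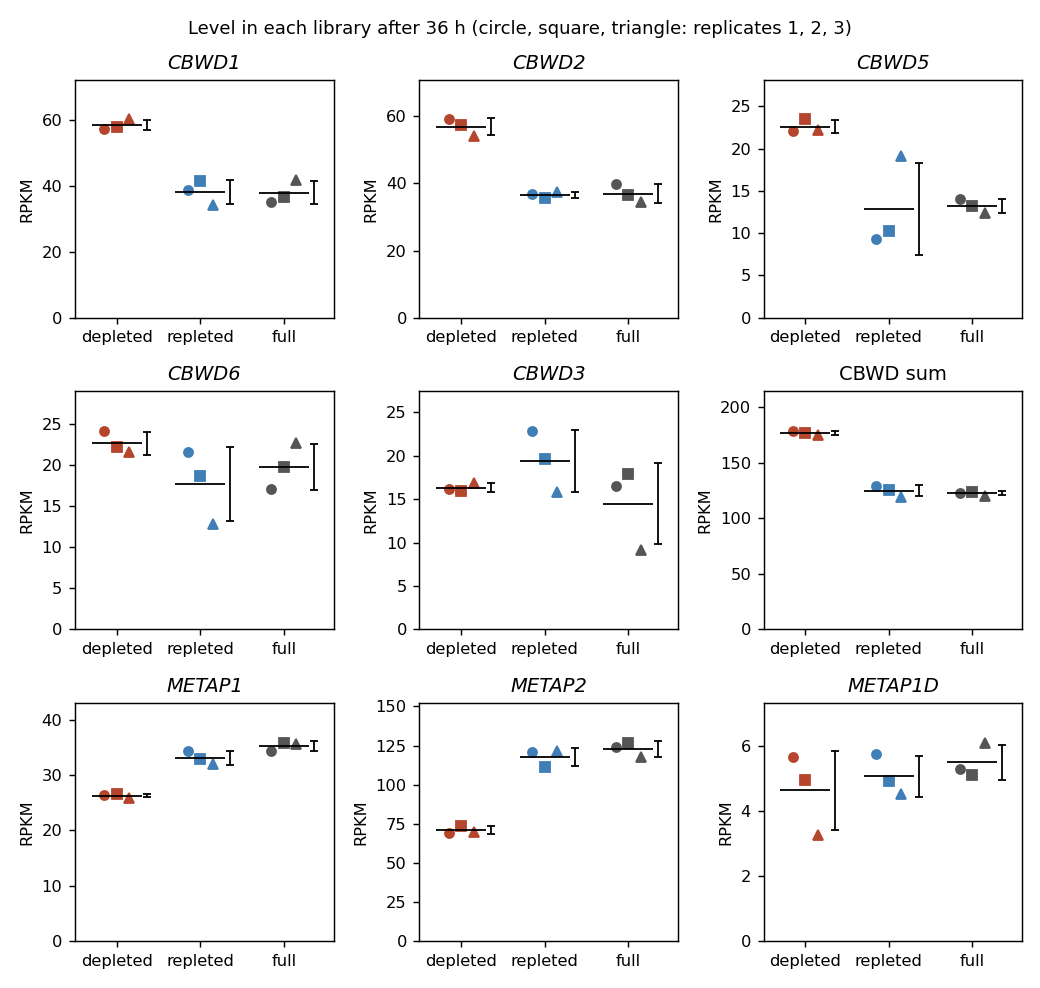
Level of each gene and of the summed CBWD copies in each library, in RPKM, in depleted, repleted and full medium. Circles, squares and triangles are replicates 1, 2 and 3, the horizontal line is the group mean and the bar its SD (n = 3). The depleted libraries stand above all others for CBWD1, CBWD2, CBWD5 and the sum, and below all others for METAP1 and METAP2.

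CBWD1 and CBWD2 were the most abundant chaperone copies in each library. CBWD1 was at 57.4, 57.9 and 60.3 RPKM in depleted, 38.9, 41.6 and 34.4 RPKM in repleted, and 35.3, 36.8 and 42.0 RPKM in full libraries. The depleted values were all above the other 6, whose groups overlapped each other. The mean was 1.54 times that in full medium and 1.53 times that in repleted medium. On the log2 scale it was higher by 0.61 (SE 0.0786, limma adjusted p = 0.000109) against full medium and 0.60 (adjusted p = 0.00012) against repleted medium. Between repleted and full medium it was 0.01, with a 95% interval of -0.17 to 0.19.

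CBWD2, the copy on chromosome 2 and the one with the largest share of windows of its own, had a matching profile. Its level was 59.1, 57.4 and 54.1 RPKM in depleted, 36.8, 35.7 and 37.5 RPKM in repleted and 39.9, 36.6 and 34.4 RPKM in full libraries. Again the depleted libraries were above all others, and repleted and full overlapped. Depleted differed by 0.61 on the log2 scale (SE 0.058, limma adjusted p = 1.46e-05) against full medium, 0.62 (adjusted p = 1.3e-05) against repleted medium and -0.01 (95% interval -0.14 to 0.12) between repleted and full medium.

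CBWD5, on chromosome 9 like CBWD1, CBWD3 and CBWD6, was the third copy to rise and had the highest fold of the family. It was at 22.1, 23.5 and 22.2 RPKM in depleted, 9.31, 10.3 and 19.2 RPKM in repleted and 14.0, 13.2 and 12.4 RPKM in full libraries. The depleted libraries were above all others, but repleted replicate 3 lay far above repleted replicates 1 and 2 and close to the depleted level. Its log2 difference was 0.73 (SE 0.207, limma adjusted p = 0.0122) against full medium and 0.83 (adjusted p = 0.0065) against repleted medium. Against repleted medium it was 1.13 without repleted replicate 3 and 0.65 without repleted replicate 1.

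CBWD3 and CBWD6 were not called, and their intervals were wide. CBWD3 was at 16.1, 16.0 and 16.9 RPKM in depleted, 22.9, 19.7 and 15.8 RPKM in repleted and 16.5, 17.9 and 9.11 RPKM in full libraries. The groups overlapped, with full replicate 3 the lowest of all and repleted replicate 1 the highest. Depleted and full medium differed by 0.21 on the log2 scale (95% interval -0.27 to 0.70, limma adjusted p = 0.418) and depleted and repleted medium by -0.22 (adjusted p = 0.395). The first interval includes the difference seen for CBWD1. For depleted against repleted medium the 95% interval was -0.71 to 0.26, which does not include the 0.60 seen for CBWD1 there. CBWD3 had the largest difference of the 8 genes between repleted and full medium, 0.44 with an interval of -0.05 to 0.92 (limma adjusted p = 0.676). Without full replicate 3, that difference was 0.15, and the one between depleted and full medium was -0.07. With 1 library left out, depleted and full medium differed by -0.07 to 0.38 and depleted and repleted medium by -0.36 (without repleted replicate 3) to -0.10 (without repleted replicate 1).

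CBWD6, the copy whose locus is a pseudogene in the newer annotation, was at 24.2, 22.2 and 21.6 RPKM in depleted, 21.7, 18.7 and 12.9 RPKM in repleted and 17.1, 19.7 and 22.7 RPKM in full libraries. Depleted overlapped both other groups, with repleted replicate 3 the lowest library. Its log2 difference was 0.19 against full medium (limma adjusted p = 0.342) and 0.36 against repleted medium (95% interval -0.01 to 0.74, adjusted p = 0.0822). The second passed the threshold in 2 of 17 alternatives, with median centring (0.41, adjusted p = 0.0459) and without repleted replicate 1 (0.52, adjusted p = 0.0207). Over all 17 its adjusted p ran between 0.0207 and 0.258, and its value was lowest, at 0.16, without repleted replicate 3. The difference against full medium was 0.092 without full replicate 1 and 0.29 without full replicate 3.

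Summed over the 5 copies, the CBWD level was 179, 177 and 175 RPKM in depleted, 130, 126 and 120 RPKM in repleted and 123, 124 and 121 RPKM in full libraries. CBWD6, a pseudogene in GENCODE 29, made up 10.8% to 18.8% of the sum over the libraries, and no sum that leaves out CBWD6 alone was formed. The depleted sum was 1.44 times the full sum and 1.42 times the repleted sum, and the repleted and full libraries overlapped. The pooled SD between replicates on the log2 scale was 0.0365 for the sum, against 0.321 for CBWD3, 0.309 for CBWD5, 0.244 for CBWD6, 0.11 for CBWD1 and 0.074 for CBWD2. A sum of 5 genes has a smaller relative spread than most of its parts even where they vary independently. The SD of the sum was 1.84 RPKM in depleted, 5.0 RPKM in repleted and 1.83 RPKM in full libraries (n = 3 each), and copies with the same SDs that varied independently would give 3.39, 8.74 and 7.15 RPKM, a description with no test. No p is given for the sum, since it was formed over chosen genes.

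**Figure D2:**
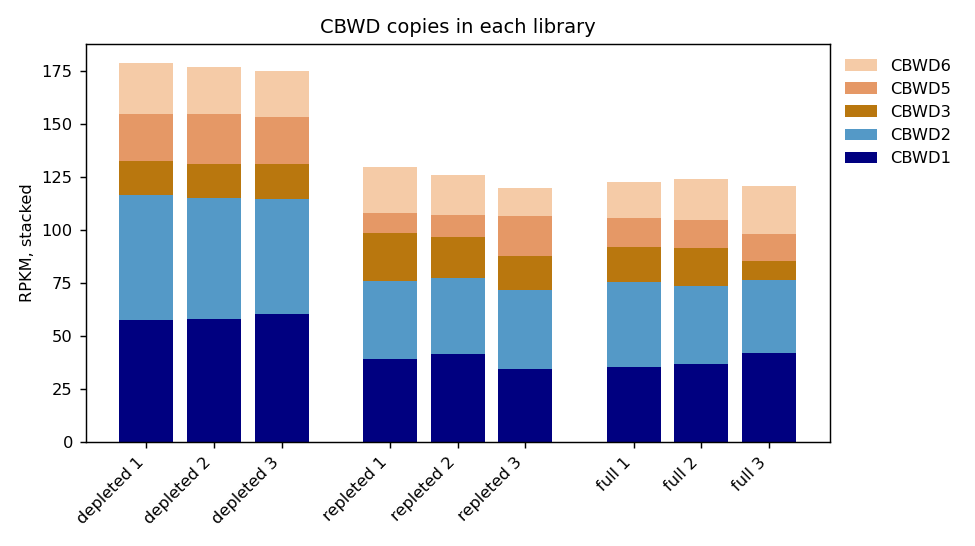
RPKM of the 5 CBWD copies stacked for each of the 9 libraries, depleted on the left, then repleted and full. The height of the stack is nearly level within a group (175 to 179 RPKM in depleted, 120 to 130 RPKM in repleted, 121 to 124 RPKM in full), while the bands of CBWD3, CBWD5 and CBWD6 change width between replicates.

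The division of the sum varied between replicates. In repleted replicates 1, 2 and 3 CBWD5 took 7.18%, 8.15% and 16.0% of the sum. CBWD3 took 17.6%, 15.6% and 13.2% and CBWD6 took 16.7%, 14.9% and 10.8% of it, so the library with the most CBWD5 had the least of both others. In full replicate 3 CBWD3 took 7.55%, the lowest share of any library, while CBWD6 and CBWD1 took 18.8% and 34.8%, their highest among the full libraries. In depleted libraries the shares were narrower, at 9.02% to 9.64% for CBWD3, 12.3% to 13.3% for CBWD5 and 12.3% to 13.5% for CBWD6. CBWD1 and CBWD2 together were at 115 ± 1.02 RPKM in depleted, 75.0 ± 2.77 RPKM in repleted and 75.0 ± 1.5 RPKM in full libraries, a ratio of 1.54 against either. CBWD3, CBWD5 and CBWD6 together were at 61.6 ± 0.815, 50.1 ± 3.27 and 47.6 ± 3.31 RPKM in depleted, repleted and full libraries (SD, n = 3 each), a ratio of 1.23 against repleted and 1.29 against full medium.

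**Figure D3:**
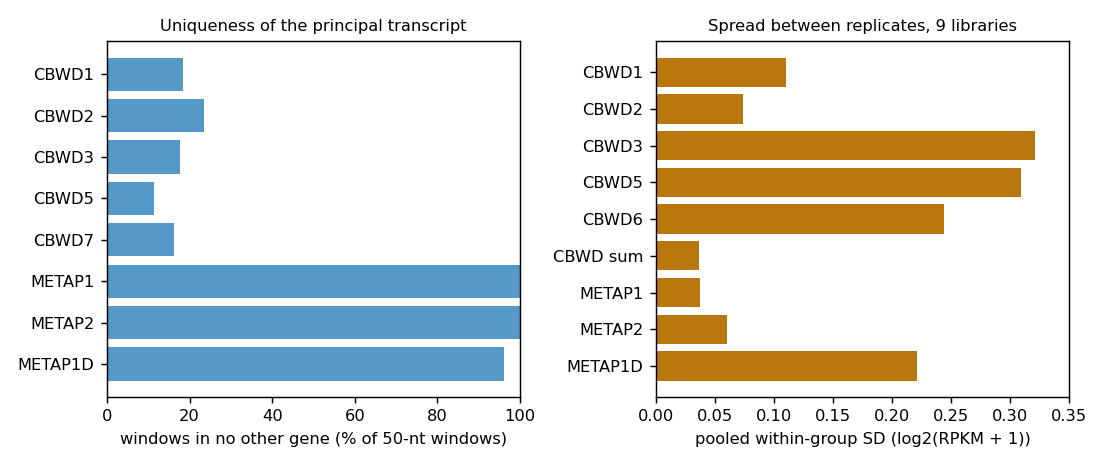
Left, the percentage of 50-base windows of a gene's principal transcript (GENCODE 29) that occur in no other gene, where CBWD1 is its first transcript and CBWD6 has none to show. Right, the pooled SD between replicates on the log2(RPKM + 1) scale over the 9 libraries. The CBWD copies have 11.5% to 23.4% of windows of their own and the METAP genes 96% to 100%, while the SD is highest for CBWD3 at 0.321 and lowest for the CBWD sum at 0.0365.

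The 4 genes with the fewest reads had wider spreads than the other 4. Estimated from the depth and the effective length, 154 to 382 reads of a library stood behind CBWD3, 209 to 617 behind CBWD5 and 225 to 477 behind CBWD6, against 851 to 1630 for CBWD1 and 903 to 1910 for CBWD2. METAP1D, with 131 to 267 reads and 96% of windows of its own, had an SD of 0.221. METAP1 and METAP2, with 1140 to 1910 and 2360 to 5310 reads, had SDs of 0.0368 and 0.0605. The parts of depth and of shared sequence in the spread of the CBWD copies were not tested.

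METAP1, the aminopeptidase that receives zinc from ZNG1, fell in depleted medium. It was at 26.4, 26.5 and 25.9 RPKM in depleted, 34.4, 32.9 and 32.0 RPKM in repleted and 34.3, 35.9 and 35.6 RPKM in full libraries. The depleted libraries lay below all others with little spread, and repleted and full overlapped. The mean fell by 25.5% against full medium and fell by 20.6% against repleted medium. The log2 difference was -0.41 (SE 0.0423, limma adjusted p = 2.48e-05) against full medium and -0.32 (adjusted p = 0.000128) against repleted medium. It was -0.09 between repleted and full medium (95% interval -0.18 to 0.01, limma adjusted p = 0.659).

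METAP2, the other cytosolic enzyme, which is the target of fumagillin and also binds the initiation factor eIF2, was the most abundant of the 8 genes and had the largest fall. It was at 69.0, 73.7 and 69.8 RPKM in depleted, 121, 111 and 122 RPKM in repleted and 124, 127 and 117 RPKM in full libraries. The depleted libraries were far below the other 6, which overlapped. The log2 difference was -0.79 (SE 0.0471, limma adjusted p = 6.68e-07) against full medium and -0.73 (adjusted p = 1.13e-06) against repleted medium, so that the mean in full medium was 1.73 times that in depleted medium. Ranked from the most negative difference, METAP2 was at place 1769 of the 15774 genes tested. Between repleted and full medium the difference was -0.06, with an interval of -0.17 to 0.05.

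METAP1D, the mitochondrial enzyme, was weakly expressed and was not called. It was at 5.66, 4.97 and 3.27 RPKM in depleted, 5.76, 4.93 and 4.53 RPKM in repleted and 5.30, 5.10 and 6.11 RPKM in full libraries. The groups overlapped, with depleted replicate 3 the lowest library. The log2 difference was -0.23 (95% interval -0.59 to 0.13, limma adjusted p = 0.241) against full medium and -0.13 (adjusted p = 0.512) against repleted medium, and the first interval includes the size seen for METAP1. Depleted replicate 3 weighed on both: without it they were -0.041 and 0.059. Without depleted replicate 1 they were -0.36 and -0.26, and without repleted replicate 1 the second was -0.048. Quantile normalization gave -0.087 and 0.011, so the direction against repleted medium changed under 2 of the alternatives. The gene overlaps SLC25A12 on the opposite strand (6.53 to 13.0 RPKM), and whether the counting used strand is not given in the sources used here.

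**Figure D4:**
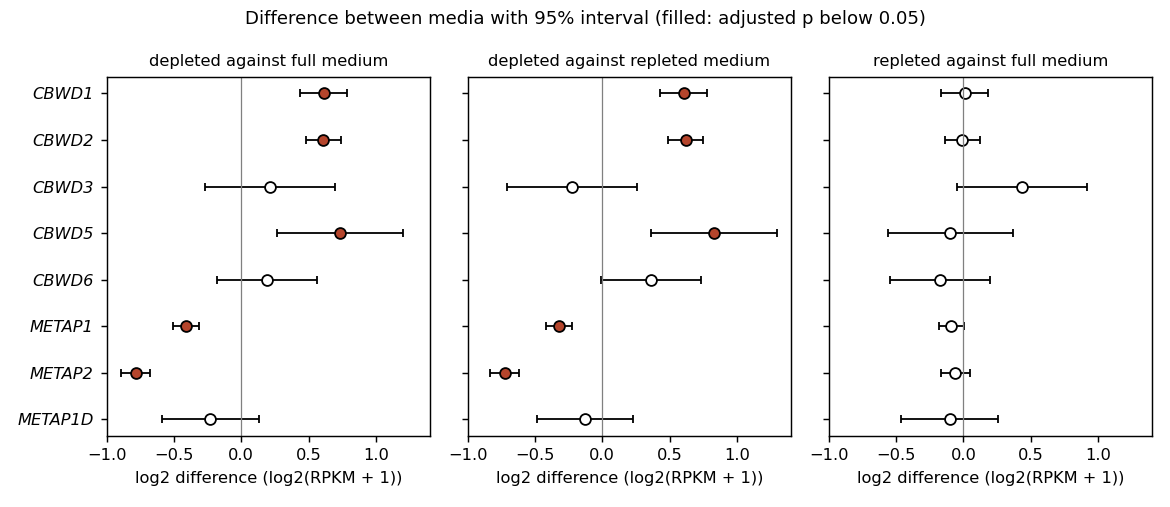
Log2 difference of RPKM plus 1 for each of the 8 genes with its 95% interval from limma. The panels, left to right, set depleted beside full, depleted beside repleted and repleted beside full medium. Filled points have an adjusted p below 0.05. CBWD1, CBWD2 and CBWD5 lie to the right of 0 and METAP1 and METAP2 to the left in both depleted comparisons, and each interval in the third panel includes 0.

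The summed CBWD level, with CBWD6 in it, and the METAP1 level moved apart, so their ratio in depleted libraries lay far from the other groups. The summed CBWD copies were at 6.77, 6.67 and 6.77 times the METAP1 level in depleted, 3.77, 3.83 and 3.74 times in repleted and 3.58, 3.46 and 3.38 times in full libraries. The groups did not overlap, with depleted far above the others and repleted slightly above full. Among single genes, repleted and full libraries lay apart for 12.4%, and depleted lay above full for 33.4% and above repleted for 31.7%. Against METAP2 the sum was 2.59, 2.4 and 2.51 times in depleted, 1.07, 1.13 and 0.983 times in repleted and 0.989, 0.979 and 1.03 times in full libraries. Here repleted and full overlapped. METAP2 itself was at 2.7 ± 0.0842 times METAP1 in depleted, 3.57 ± 0.216 times in repleted and 3.48 ± 0.171 times in full libraries (SD, n = 3 each), and the 95% intervals of the 2 log2 differences against full medium (-0.89 to -0.68 for METAP2, -0.51 to -0.32 for METAP1) did not overlap. These ratios are descriptions over chosen genes, with no p.

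The genes with profiles most like these were found by the root mean square distance of log2 values over the 9 libraries, each less its own mean. Nearest to the CBWD sum were TBCB, a tubulin folding cofactor (163.2, 116.1 and 113.8 RPKM on average in depleted, repleted and full libraries, distance 0.0171), PRPF6, a splicing factor (distance 0.027), and SBDS, a ribosome maturation factor with a near-identical pseudogene (distance 0.0287). TBCB, SBDS and, among the genes that follow, PYGB and PA2G4 overlap expressed genes on the opposite strand. Among those nearest to METAP1 were PYGB (0.0354), a glycogen phosphorylase, and CHST14 (0.0387), a dermatan sulfotransferase. Nearest to METAP2 were HMGB3 (0.0352), a chromatin protein, PA2G4 (0.0385) and NGFRAP1 (0.0388). The genes nearest to METAP1D, RP11-161M6.2, NRBP2 and NRF1, were farther away, at 0.0871 to 0.11. On the same strand, RP11-161M6.2 overlaps LMF1 (3.06 to 4.42 RPKM) and NRF1 overlaps RNA5SP244 (0 to 6.04 RPKM), so reads could be split between them. PA2G4 overlaps AC034102.2 (0 to 5.03 RPKM) in the same way.

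Other proteins with the fold of methionine aminopeptidases, called pita-bread fold proteins, did not move as a block. In depleted against full medium 1 of 5 tested rose and 2 fell, with a median log2 difference of -0.08, beside 0.00 over all tested genes. The shares called over all tested genes were 29.8% higher and 31.2% lower. PA2G4, a growth regulator that has this fold without peptidase activity, was at 139.6 ± 4.63 RPKM in depleted, 234.2 ± 2.71 RPKM in repleted and 241.6 ± 3.18 RPKM in full libraries, a log2 difference of -0.79 against full medium (SE 0.0297, limma adjusted p = 4.38e-08). The aminopeptidase XPNPEP1, which cuts before proline, fell by 0.43 on the log2 scale and the prolidase PEPD rose by 0.30, while the histone chaperone subunit SUPT16H differed by -0.08 (limma adjusted p = 0.0561). Against repleted medium the counts were the same, and in repleted against full medium 0 of the 5 were called.

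Called subunits of the enzymes that acetylate the N-termini of proteins were mostly higher in depleted medium, with 1 lower. Of 12 tested subunits of the N-terminal acetyltransferases, 7 rose and 1 fell in depleted against full medium, with a median log2 difference of 0.30, and 8 rose and 1 fell against repleted medium. Over all tested genes 29.8% were called higher and 31.2% lower against full medium, and 29.5% and 31.2% against repleted medium. NAA10, the catalytic subunit that acetylates many of the N-termini that methionine removal exposes, averaged 344.4 ± 2.5 RPKM in depleted, 272.1 ± 9.68 RPKM in repleted and 267.3 ± 6.18 RPKM in full libraries (log2 difference against full medium 0.36, limma adjusted p = 6.71e-06). NAA35, NAA40 and NAA60 rose by 0.48, 0.41 and 0.49 on the log2 scale against full medium, and the 1 that fell, by 0.23, was NAA30, the catalytic subunit that works with NAA35, named here after its values were seen. Between repleted and full medium limma called 0 of the 12. NAA10 overlaps ARHGAP4 (0.54 to 3.32 RPKM) and NAA60 overlaps AC004224.2 (0 to 1.26 RPKM) on the same strand.

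Among 10 genes of N-myristoylation, deformylation and the N-degron pathways, 5 rose and 3 fell in depleted against both other media, with a median log2 difference of 0.10 against full medium. For all tested genes the shares called were 29.8% higher and 31.2% lower against full medium, and 29.5% and 31.2% against repleted medium. UBR4, a ubiquitin ligase of the N-degron pathway, averaged 82.3 ± 5.68 RPKM in depleted, 32.7 ± 8.26 RPKM in repleted and 24.2 ± 4.12 RPKM in full libraries, a log2 difference of 1.73 against full medium (limma adjusted p = 1.33e-05). NTAN1, which deamidates N-terminal asparagine, rose by 0.98. The mitochondrial deformylase PDF, which acts before METAP1D on proteins made in mitochondria, fell by 0.55, at 21.8 ± 1.21 RPKM in depleted, 34.2 ± 0.853 RPKM in repleted and 32.3 ± 1.45 RPKM in full libraries. PDF overlaps COG8 on the same strand (18.6 to 23.1 RPKM), so reads could be split between them. The myristoyltransferase NMT1 fell by 0.37 on the log2 scale. NTAN1 and NMT1 overlap expressed genes on the opposite strand. Of the 10 genes, limma called 0 between repleted and full medium.

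Factors that meet the nascent chain at the ribosome exit, where METAP1 and METAP2 also act, were divided too. Of 6 tested, 2 rose and 3 fell in depleted medium against both other media, with a median log2 difference of 0.01 against full medium. All tested genes together had 29.8% called higher and 31.2% lower against full medium, and 29.5% and 31.2% against repleted medium. The ribosome-bound cochaperone DNAJC2 fell by 0.62 and its partner HSPA14 rose by 0.26, while NACA, a subunit of the nascent polypeptide-associated complex, fell by 0.11 and BTF3L4, a relative of its other subunit, rose by 0.35 on the log2 scale. DNAJC2, HSPA14 and BTF3L4 overlap expressed genes on the opposite strand, and NACA overlaps PRIM1 (21.6 to 31.6 RPKM) on the same strand. Limma called 0 of the 6 genes between repleted and full medium.

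**Figure D5:**
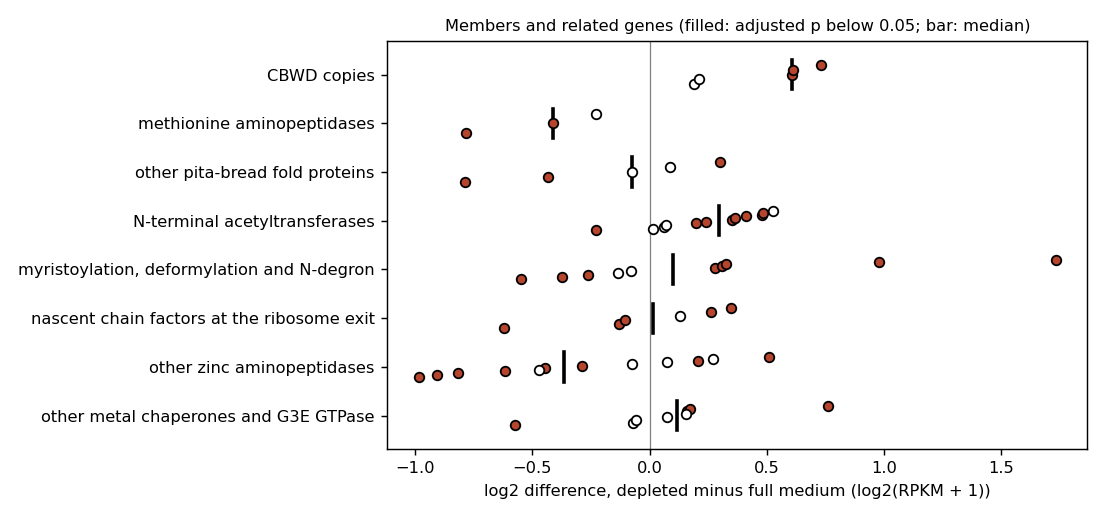
Log2 difference of RPKM plus 1, depleted minus full medium, for each tested gene of the CBWD copies, the methionine aminopeptidases and 6 lists of related genes. Filled points have an adjusted p below 0.05 and the short bar is the list's median. The 3 filled CBWD points lie to the right of 0 and the 2 filled methionine aminopeptidases to the left, while each of the other 6 lists has filled points on both sides.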

How the data were processed

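The authors deposited log2 of RPKM plus 1 per gene (57766 genes), with no read counts, for 9 libraries. The submitters' processing notes name, in no order, bedtools (2.25.0.3), BWA (0.7.12-r1039), Bowtie (1.0.1), RSEM (1.2.6) and the builds GRCh37 and hg19. RSEM divides reads that match several genes by estimation. How it was set is not given in the sources used here. The 20320 rows without a gene were left out.

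Limma 3.58.1 (R 4.3.3, trend, 1 mean per group, no block) was run on the deposited log2 values of the 15774 genes that reached 1 RPKM in 3 or more libraries, with Benjamini-Hochberg adjustment per comparison and a threshold of 0.05. Depth was estimated from steps between low values of short genes. Between 62.6% and 68.6% of those were whole reads within 0.1 read, too few for a count test. Members and lists were chosen with earlier results of these data known. Named were all 8 members, of each other list the tested genes of smallest p against full medium (at most 4), and the 3 nearest profiles, of which 1 is not reported here. Alternatives were a pseudocount of 0.1, no filter, a mean filter, the 6 libraries compared, a replicate block, median centring, quantile normalization, a threshold of 0.01 and each library left out. The summed copies were also formed in other ways, chosen after the data were seen. PECAM1 and CBWD4P were not matched. Gene positions on hg19 are not given, since the annotation at hand follows GRCh38.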

Additional observations from a re-analysis of the deposited data

How the results depend on the processing

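All 8 genes kept their calls in all 17 alternatives, except that CBWD5 against full medium missed a threshold of 0.01 and CBWD6 against repleted medium passed 0.05 in the 2 alternatives given above. No called value changed sign. Among those not called in the depleted comparisons, METAP1D against repleted medium and CBWD3 against full medium did, as given above, and between repleted and full medium 4 of the 8 genes did (CBWD1, CBWD2, CBWD5 and CBWD6). The members called numbered 4 to 5 against full and 5 to 6 against repleted medium. Over all genes, 5 were called between repleted and full medium, against 3 with a pseudocount of 0.1, 2 with no filter, 2 with only the 6 libraries compared, 2 with the replicate block, 1 at a threshold of 0.01 and 1 to 9 with a library left out (9 without full replicate 1, 2 without full replicate 2 or depleted replicate 2, 3 without depleted replicate 3 or repleted replicate 1 or 2, and 1 without full replicate 3 or repleted replicate 3). The cause was not tested.

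The summed CBWD log2 difference was 0.53 against full and 0.50 against repleted medium, and 0.03 between repleted and full medium. Unlike the differences of single genes, those of sums were taken on RPKM without 1 added. Weighted by effective length, the first was 0.56. CBWD1 and CBWD2 alone gave 0.62 and 0.62. CBWD3, CBWD5 and CBWD6 alone gave 0.38, 0.30 and, between repleted and full medium, 0.075. A library left out gave 0.52 to 0.54 against full and 0.47 to 0.53 against repleted medium.

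Replicates with the same number share only that number (residual r -0.0144 to 0.0726, against -0.0609 to 0.0416 for other numbers, and 4 of 9 libraries correlated best with their own number). With the replicate block 9511 genes were called against full and 9472 against repleted medium, beside 9611 and 9574 without it. No interval from counts could be formed.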

Other observations

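Other aminopeptidases that use zinc were also counted. Of 12 tested, 6 fell and 2 rose in depleted against full medium (median log2 difference -0.37) and 7 fell and 2 rose against repleted medium, while limma called 0 between repleted and full medium. Over all tested genes 31.2% were called lower and 29.8% higher against full medium, and 31.2% and 29.5% against repleted medium. LTA4H, which makes leukotriene B4 and also cleaves peptides, averaged 37.9 ± 1.36 RPKM in depleted, 72.2 ± 1.92 RPKM in repleted and 72.0 ± 0.763 RPKM in full libraries, a log2 difference of -0.91 against full medium (limma adjusted p = 7.76e-08). RNPEPL1, C9orf3 and the leucine aminopeptidase LAP3 fell by 0.82, 0.98 and 0.45 on the log2 scale. RNPEPL1 overlaps an expressed gene on the opposite strand.

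A further list held other metal chaperones and MMAA, a human G3E GTPase that serves a cobalamin enzyme. Of 8 tested, 3 rose and 1 fell against full medium (median log2 difference 0.11) and 4 rose and 2 fell against repleted medium, with 0 called by limma between repleted and full medium. The shares over all tested genes were 29.8% higher and 31.2% lower against full medium, and 29.5% and 31.2% against repleted medium. MMAA averaged 3.1 ± 0.376 RPKM in depleted, 1.73 ± 0.167 RPKM in repleted and 1.42 ± 0.185 RPKM in full libraries, a log2 difference of 0.76 against full medium (limma adjusted p = 0.000387). The copper chaperone SCO2, which serves cytochrome c oxidase, fell by 0.57 on the log2 scale, and the iron chaperones PCBP1 and PCBP2 rose by 0.16 and 0.17. SCO2, PCBP1 and PCBP2 overlap expressed genes on the opposite strand, and PCBP2 overlaps AC023509.1 (0.3 to 4.47 RPKM) on the same strand.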
